A study of Homo sapiens with 32 samples.

Results

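Transcripts of 5 matrix metalloproteinases (MMP2, MMP7, MMP14, MMP15 and MMP24) and 3 tissue inhibitors of metalloproteinases (TIMP1, TIMP2 and TIMP3) were followed in 4 human endometrial cancer cell lines. These 8 genes, of 35238 in the deposited table, were chosen by name, and the set was built around MMP2, which had been selected on its far higher level in Ishikawa-S33Y than in Ishikawa. All 8 genes had reads and passed the filter on low values, CPM (reads per 1000000 counted) above 1 in at least 2 libraries, as did 17011 genes in all. The members were chosen with earlier results of these data known, so passing the filter is no test of the set. MMP2 passed it through the Ishikawa and Ishikawa-S33Y libraries alone.

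Ishikawa carries wildtype CTNNB1, the gene of beta-catenin, and the labels give Ishikawa-S33Y, SNGM and HEC265 as CTNNB1-mutated. How Ishikawa-S33Y was derived from Ishikawa, and whether it is a single clone, is not given in the sources used here. Each line was grown in serum-containing medium and treated for 24 h with vehicle (0.1% DMSO), paclitaxel, SM08502 or both, with 2 libraries per line and treatment, 32 in all. SM08502 inhibits CDC-like kinases, which phosphorylate the serine- and arginine-rich splicing factors, and paclitaxel is a taxane that stabilises microtubules. Doses were set per line at the concentration that inhibits viability by 50%. Ishikawa received 11 nM paclitaxel, Ishikawa-S33Y 6 nM, SNGM 11.7 nM and HEC265 5.6 nM. For SM08502 the doses were 80, 85, 350.7 and 149 nM in the same order, so effects were compared between lines at doses matched on viability, not on concentration. Cells were plated in duplicate, and p-values measure the spread between such duplicates. Genotype cannot be told apart from cell line in this design.

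Matrix metalloproteinases are zinc-dependent enzymes that cut collagens, laminins and other extracellular proteins. MMP2, gelatinase A, is secreted as an inactive precursor and is activated at the cell surface by MMP14, a membrane-type proteinase, in a complex that also holds TIMP2. TIMPs bind active metalloproteinases and block them, so the same inhibitor, TIMP2, takes part in both activation and blocking of MMP2. In the endometrium, metalloproteinases act in menstrual breakdown and repair, and MMP7, matrilysin, is made by its epithelial cells and is a known target of beta-catenin signalling.

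The region around the transcription start was available for 6 of the 8 genes (RefSeq, GRCh38.p14, 250 bases before to 50 after the start), and not for MMP2 or TIMP2. Motifs searched on both strands were the AP-1 site TGANTCA, the TCF/LEF core CTTTGA, the GC box GGGCGG and the TATA box TATAAA; none of them overlapped another in the windows shown. Of 35116 such windows of the genome, 7.71% held the AP-1 letters, 12.9% the TCF/LEF letters, 45.0% the GC box and 11.5% the TATA box. The sequences given are those of MMP7, the member whose window held TCF/LEF letters, and MMP24 and TIMP1, whose transcripts moved in opposite directions with SM08502. Capitals mark the matches, and each sequence is written 5′ to 3′ on the strand of the gene. The MMP7 window is chr11:102530698-102530997 (minus strand), that of MMP24 is chr20:35226440-35226739 (plus strand) and that of TIMP1 is chrX:47582186-47582485 (plus strand).
MMP7: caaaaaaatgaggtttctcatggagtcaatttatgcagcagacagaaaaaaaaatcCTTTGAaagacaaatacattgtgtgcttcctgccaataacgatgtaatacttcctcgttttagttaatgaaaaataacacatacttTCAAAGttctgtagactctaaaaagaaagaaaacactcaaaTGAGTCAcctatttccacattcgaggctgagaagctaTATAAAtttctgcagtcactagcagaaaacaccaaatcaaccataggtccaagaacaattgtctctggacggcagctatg
MMP24: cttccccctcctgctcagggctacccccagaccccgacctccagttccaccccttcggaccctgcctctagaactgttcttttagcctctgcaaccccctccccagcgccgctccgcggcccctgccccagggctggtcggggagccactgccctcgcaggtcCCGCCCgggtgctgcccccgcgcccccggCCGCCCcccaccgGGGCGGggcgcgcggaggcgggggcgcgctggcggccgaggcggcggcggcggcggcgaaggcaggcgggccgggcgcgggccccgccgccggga
TIMP1: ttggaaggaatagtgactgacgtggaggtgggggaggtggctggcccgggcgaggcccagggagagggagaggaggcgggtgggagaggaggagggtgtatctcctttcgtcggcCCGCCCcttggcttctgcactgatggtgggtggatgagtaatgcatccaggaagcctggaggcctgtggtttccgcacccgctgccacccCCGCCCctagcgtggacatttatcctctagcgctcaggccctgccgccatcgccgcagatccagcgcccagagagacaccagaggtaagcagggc

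In the MMP7 window the TCF/LEF letters stood at positions -194 and, on the opposite strand, -108 from the start, the AP-1 letters at -67 and the TATA box at -30. It had a GC content of 35.7% and 4 CpG dinucleotides, against a median GC content of 58.7% over all windows. The MMP24 window had 80.0% GC, 37 CpG and 3 GC boxes, and that of TIMP1 had 65.0% GC, 16 CpG and 2 GC boxes. Windows of MMP15 (75.3% GC, 5 GC boxes), TIMP3 (72.7% GC, 5 GC boxes) and MMP14 (55.0% GC, 1 GC box) also held GC boxes and no match to the other 3 motifs. These matches describe letters in the windows, not bound sites.

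By the same annotation MMP2 lies at chr16:55478830-55506691, MMP7 at chr11:102520508-102530747, MMP14 at chr14:22836585-22847758 and MMP15 at chr16:58025754-58046901, and none of these 4 overlaps another annotated gene. TIMP2 at chr17:78852977-78925387 overlaps CEP295NL, which had at most a mean of 0.61 CPM on vehicle in any line. TIMP3 at chr22:32801705-32863041 lies within SYN3, which on vehicle had means of 0.38 CPM in Ishikawa, 1.80 CPM in SNGM and 0.45 CPM in HEC265. Reads of overlapping genes may be split between them, which bears most on the low TIMP3 values of SNGM and HEC265.

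Depth was 13.03 to 34.13 M reads (M, 1000000 reads) in 30 libraries (median of all 32, 20.61 M), and 2 combination libraries were shallow: replicate 2 of Ishikawa-S33Y with 2.99 M and replicate 2 of SNGM with 1.61 M. Ishikawa libraries were made from 350 ng of RNA and the others from 500 ng. All 11 epithelial markers, EPCAM, CDH1 and keratins among them, had a median above 1 CPM in Ishikawa, Ishikawa-S33Y and HEC265. In SNGM 10 of 11 did, and SOX17 had a median of 0. The same bound was passed by 6 of 10 stromal fibroblast markers in Ishikawa-S33Y, 5 in Ishikawa, 4 in SNGM and 2 in HEC265. Endothelial markers summed to 1.19 to 11.1 CPM and leukocyte markers to 6.41 to 51.8 CPM across all libraries. Replicates of Ishikawa stood apart under single drugs. With SM08502, 7 of the 8 members were lower in replicate 2 than in replicate 1, by a median of 0.71 on the log2 scale (members' median difference -0.71, all tested genes -0.05). With paclitaxel 7 of 8 were also lower in replicate 2 (median difference -0.59, all tested genes -0.19). Ishikawa results are therefore given below with both libraries, and with a library left out where that changes them. Which replicate deviates cannot be told from 2 libraries.

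MMP2, the gene the set was built around, was highest in Ishikawa-S33Y. On vehicle, MMP2 had 62.05 and 58.6 CPM in the 2 Ishikawa-S33Y libraries and 1.85 and 1.69 CPM in the 2 Ishikawa libraries, means of 60.3 ± 2.43 and 1.77 ± 0.11 (SD, n = 2), a ratio of 34.1. Over all treatments the 8 Ishikawa-S33Y libraries ranged from 56.7 to 65.5 CPM (median 61.0) and the 8 Ishikawa libraries from 0.91 to 2.49 CPM (median 1.76), with no overlap. MMP24, described further on, also lay above the other lines there. In SNGM, MMP2 was listed at 0 in 5 of 8 libraries with 3 of 210.1 M reads. In HEC265 it was at 0 in 3 of 8 libraries with 8 of 193.1 M reads. SNGM and HEC265 share the CTNNB1-mutated label with Ishikawa-S33Y, and their MMP2 ranges overlapped each other near 0. Since MMP2 was selected on this difference, these levels are a description without a test.

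Stromal fibroblast markers differed between Ishikawa-S33Y and Ishikawa in both directions, and their sum followed COL1A1. The summed level of 10 stromal fibroblast markers was 717.8 to 1174 CPM for Ishikawa-S33Y, 40.6 to 226.7 CPM for Ishikawa, 18.1 to 28.4 CPM for SNGM and 18.2 to 28.5 CPM for HEC265. In Ishikawa-S33Y most of it was COL1A1, a chain of type I collagen, with a median of 970.6 CPM in Ishikawa-S33Y and 66.4 in Ishikawa. By their medians over 8 libraries, COL3A1 (3.79 against 1.37 CPM), PDGFRA (2.07 against 0.99) and COL1A2 (1.56 against 1.07) were also higher in Ishikawa-S33Y than in Ishikawa. ACTA2 (3.23 against 16.2 CPM), THY1 (1.16 against 2.22), DCN (0.53 against 0.67) and LUM (0.05 against 0.17) were lower, and PDGFRB and FAP had a median of 0 in both lines. FAP was at 0 in all 8 Ishikawa libraries, and FAP and LUM were at 0 in all 8 HEC265 libraries. The part of fibroblast transcripts in the MMP2 difference was not tested. In bulk RNA, fewer cells of a type and less RNA per cell cannot be told apart.

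**Figure D1:**
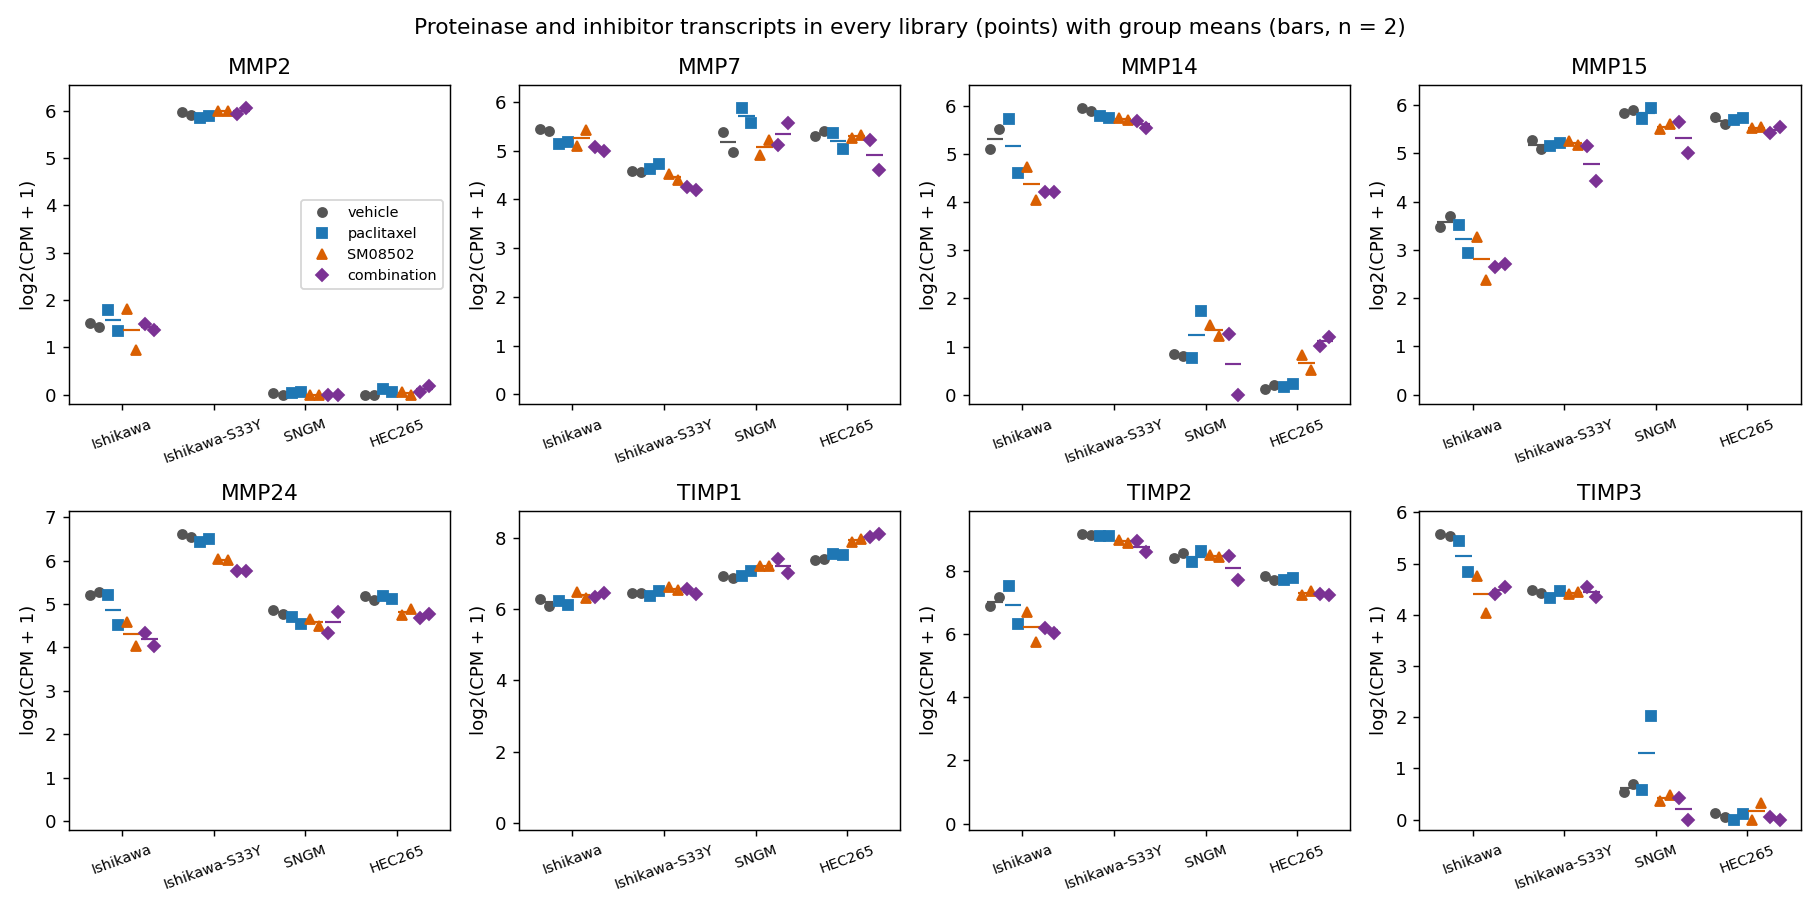
Transcript level of each of the 8 genes as log2(CPM + 1) in all 32 libraries, by cell line on the x axis; points are libraries, coloured by treatment, and short bars are group means (n = 2). MMP2 lies near 6 in Ishikawa-S33Y under every treatment, between 0.9 and 1.8 in Ishikawa and near 0 in SNGM and HEC265.

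MMP14, the membrane-type activator of MMP2, was found in both Ishikawa lines and was low in the others. On vehicle it had 61.5 and 59.1 CPM in Ishikawa-S33Y, 33.3 and 44.9 CPM in Ishikawa, 0.798 and 0.733 CPM in SNGM and 0.0890 and 0.154 CPM in HEC265. Vehicle libraries of the 4 lines did not overlap, but over all 8 libraries Ishikawa (15.5 to 52.0 CPM) overlapped Ishikawa-S33Y (45.8 to 61.5 CPM), and SNGM overlapped HEC265. TIMP2, which links MMP14 to pro-MMP2, was highest in Ishikawa-S33Y with 574 and 558 CPM, followed by SNGM with 336 and 376, HEC265 with 225 and 206 and Ishikawa with 117 and 143. SNGM and HEC265 thus had TIMP2 transcripts with almost no MMP2 or MMP14. MMP2 and MMP14 were both above 10 CPM only in the Ishikawa-S33Y libraries.

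The other membrane-type proteinases, MMP15 and MMP24, had another order. MMP15 (membrane type 2) was highest in SNGM (55.9 and 58.8 CPM) and HEC265 (52.9 and 47.7 CPM), lower in Ishikawa-S33Y (37.7 and 32.995 CPM) and lowest in Ishikawa (10.1 and 11.98 CPM). Over all 8 libraries the SNGM and HEC265 ranges overlapped, while Ishikawa-S33Y lay below HEC265 and above Ishikawa without overlap. MMP24 (membrane type 5, best known from neurons) had 97.3 and 91.9 CPM in Ishikawa-S33Y, 2.56 times the mean of Ishikawa with 36.01 and 37.9. HEC265 with 35.6 and 33.1 and SNGM with 28.04 and 26.3 followed close below, and over all treatments the ranges of Ishikawa, HEC265 and SNGM overlapped.

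MMP7, in contrast, was lowest in Ishikawa-S33Y. Its vehicle libraries had 22.9 and 22.7 CPM there, against 42.2 and 40.99 in Ishikawa, 38.3 and 41.04 in HEC265 and 40.8 and 30.4 in SNGM. The last 3 lines overlapped in their vehicle libraries, and none of their 24 libraries overlapped the Ishikawa-S33Y range of 17.4 to 25.5 CPM except for 1 HEC265 combination library at 23.4 CPM. On vehicle no line labelled CTNNB1-mutated had a higher mean of MMP7 than the wildtype Ishikawa.

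TIMP3, the inhibitor that binds to the matrix, was found in both Ishikawa lines and was near 0 in the others. On vehicle it had 47.05 and 45.3 CPM in Ishikawa and 21.5 and 20.6 CPM in Ishikawa-S33Y, against 0.447 and 0.615 in SNGM and 0.0890 and 0.0390 in HEC265. TIMP1, a secreted inhibitor that blocks membrane-type proteinases poorly, had the opposite order, with 165 and 169 CPM in HEC265, 120 and 117 in SNGM, 86.8 and 87.1 in Ishikawa-S33Y and 77.3 and 67.7 in Ishikawa.

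Expressed as log2(CPM + 1), the unit of the model below, Ishikawa-S33Y differed from Ishikawa on vehicle by 4.47 for MMP2, 2.13 for TIMP2, 1.59 for MMP15, 1.33 for MMP24, 0.63 for MMP14, 0.26 for TIMP1, -0.84 for MMP7 and -1.10 for TIMP3. This contrast was used to choose MMP2, so no test is given.

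HEC265 and SNGM, both labelled CTNNB1-mutated, were compared on vehicle with limma's moderated test on log2(CPM + 1), Benjamini-Hochberg adjusted over 17011 genes and called at an adjusted p under 0.05. TIMP1 was higher in HEC265 by 0.50 (SE 0.11, adjusted p = 4.98e-04, limma) and TIMP2 was lower by 0.72 (log2 difference -0.72, SE 0.29, adjusted p = 0.0386, limma). The other 6 members were not called, with intervals such as -0.22 to 0.55 for MMP7 and -1.38 to 0.07 for MMP14. Of all tested genes, 26.0% were called higher and 28.9% lower in this comparison, so 1 member in each direction is not above the background. The TIMP2 call was lost when any of the 4 vehicle libraries was left out, and that of TIMP1 held in all 15 alternatives.

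**Figure D2:**
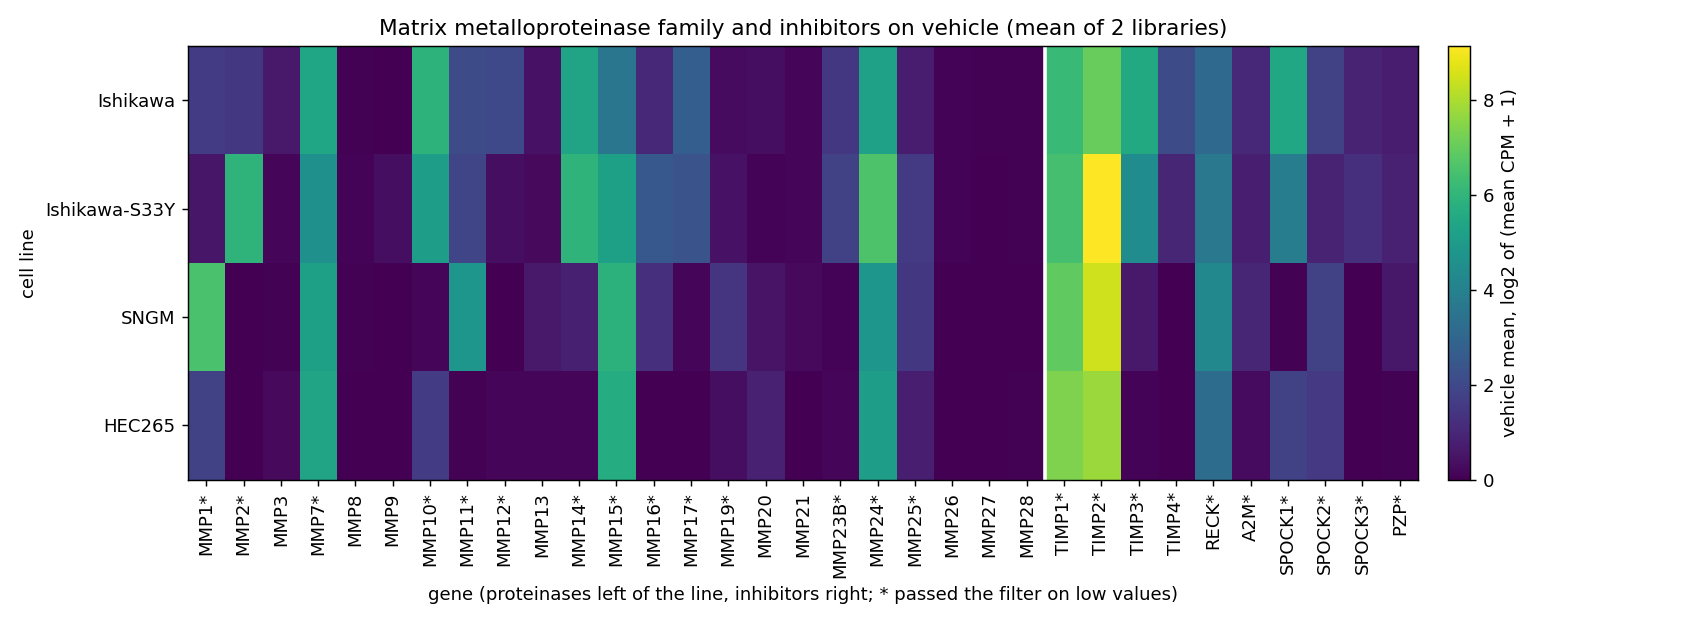
Mean vehicle level (n = 2) of 23 matrix metalloproteinases and 10 inhibitors, as log2 of mean CPM + 1 in colour, with cell lines in rows; an asterisk marks the genes that passed the filter. The MMP2 column is bright in Ishikawa-S33Y alone, MMP1 in SNGM alone, and TIMP1 and TIMP2 are bright in all 4 lines.

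Each line had its own set of other family members. Of 23 metalloproteinases 14 passed the filter, and MMP3, MMP8, MMP9 (gelatinase B), MMP13, MMP20, MMP21, MMP26, MMP27 and MMP28 did not. MMP1, interstitial collagenase, had a mean of 91.6 ± 15.7 CPM on vehicle in SNGM and at most 2.41 CPM in the other lines. MMP11, stromelysin 3, was also highest in SNGM, at 27.1 ± 4.26 CPM, and at most 3.35 elsewhere. MMP10, stromelysin 2, had 58.7 ± 2.40 CPM in Ishikawa and 33.8 ± 2.35 in Ishikawa-S33Y, against 2.0 in HEC265 and 0.08 in SNGM. SPOCK1, a proteoglycan inhibitor of membrane-type proteinases, was at 43.6 CPM in Ishikawa and 13.8 in Ishikawa-S33Y (means of 2).

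SM08502 lowered MMP24 and raised TIMP1. For MMP24 the 2 SM08502 libraries lay below both vehicle libraries in all 4 lines. Ishikawa libraries had 23.01 and 15.3 CPM, and Ishikawa-S33Y libraries 64.1 and 63.8 CPM. Levels with SM08502 were 24.4 and 21.7 CPM for SNGM and 25.98 and 28.5 CPM for HEC265, to be read against the vehicle values above. With paclitaxel alone MMP24 also lay below both vehicle libraries in Ishikawa (35.8 and 22.0 CPM), Ishikawa-S33Y (85.3 and 89.3) and SNGM (24.9 and 22.3). That separation from vehicle was thus not particular to SM08502. The SM08502 change averaged over the 4 lines was -0.51 on the log2 scale (SE 0.09, adjusted p = 1.50e-04, limma), a call that held in all 26 alternatives. By line it was called in Ishikawa (log2 change -0.94, SE 0.18, adjusted p = 0.00166) and in Ishikawa-S33Y (log2 change -0.56, SE 0.18, adjusted p = 0.0269), and not in SNGM (-0.23) or HEC265 (-0.33). In HEC265 it was called in 2 of 15 alternatives, with the HEC265 libraries fitted alone and with voom on recovered reads. The Ishikawa call was lost without replicate 2 of SM08502 (log2 change then -0.66), and the Ishikawa-S33Y call was lost when any 1 of its 4 libraries was left out. MMP24 lies at chr20:35226690-35276998 (GRCh38.p14), where the annotation has MMP24OS and the readthrough MMP24-AS1-EDEM2 over the same bases, and the deposited table has a row for MMP24-AS1. The strand of counting is not given in the sources used here, so reads of the pair cannot be told apart, and the MMP24 values are uncertain to that extent. MMP24-AS1 also fell with SM08502 in Ishikawa (log2 change -0.53, SE 0.14, adjusted p = 0.0114, limma) and in Ishikawa-S33Y (-0.42, SE 0.14, adjusted p = 0.0239), and in HEC265 its change was 0.31 and not called.

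TIMP1 was higher than in both vehicle libraries in all 8 SM08502 libraries. HEC265 libraries had 236 and 251 CPM, those of SNGM 149 and 147 CPM, those of Ishikawa-S33Y 97.5 and 91.4 CPM and those of Ishikawa 89.1 and 78.1 CPM. With paclitaxel alone TIMP1 also lay above both vehicle libraries in SNGM (122 and 132 CPM) and HEC265 (186 and 184 CPM), and overlapped them in the Ishikawa lines. The mean SM08502 change over the 4 lines was 0.29 (SE 0.05, adjusted p = 1.75e-04, limma), in all 26 alternatives. By line it was called in HEC265 alone (0.54, SE 0.11, adjusted p = 0.00156), with 0.32 in SNGM (adjusted p = 0.0755), 0.20 in Ishikawa and 0.12 in Ishikawa-S33Y. TIMP1 lies at chrX:47582436-47586789 (GRCh38.p14), inside SYN1. SYN1 had no read in HEC265 on vehicle, where its change was 0.03, and in Ishikawa it was lower with SM08502 (log2 change -0.70, SE 0.22, adjusted p = 0.0353, limma).

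The remaining calls with SM08502 were in Ishikawa. MMP15 had 8.56 and 4.20 CPM against 10.1 and 11.98 on vehicle (log2 change -0.77, SE 0.24, adjusted p = 0.0359, limma). TIMP3 had 26.2 and 15.4 CPM against 47.05 and 45.3 (log2 change -1.16, SE 0.30, adjusted p = 0.0130, limma). MMP14 with 25.4 and 15.5 CPM (-0.93, adjusted p = 0.0772) and TIMP2 with 104 and 52.4 CPM (-0.80, adjusted p = 0.0647) were not called. For each of these 4 genes replicate 2 was the lower library, and without it the MMP15 change was -0.33 and that of TIMP3 -0.79, neither called. Without replicate 1 instead, MMP14 and TIMP2 were called, and each was called in 5 of 15 alternatives. With the Ishikawa libraries fitted alone none of the 3 Ishikawa calls was kept. In Ishikawa-S33Y, TIMP3 was not called, and SM08502 libraries had 20.2 and 20.7 CPM (log2 change -0.04, interval -0.67 to 0.59). The difference of the TIMP3 effect between the 2 Ishikawa lines was 1.12 and was not called (adjusted p = 0.170).

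In all, 5 of the 32 member-by-line tests of SM08502 were called, 4 lower and 1 higher. In Ishikawa 3 members were lower, where 8.68% of all tested genes were called lower and 6.5% higher. In Ishikawa-S33Y 1 was lower (10.6% of genes lower, 18.5% higher), in SNGM none was called (4.06% lower, 3.8% higher) with 1 of 8 members at an unadjusted p under 0.05 against 19.9% of all tested genes, and in HEC265 1 was higher (9.27% higher, 5.39% lower). For the mean over lines 22.6% of genes were called higher and 15.8% lower. There TIMP1 was the 1 member called higher, and MMP24 and TIMP2 were called lower. The TIMP2 mean change of -0.37 (SE 0.14, adjusted p = 0.0464) was lost in 18 of 26 alternatives.

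**Figure D3:**
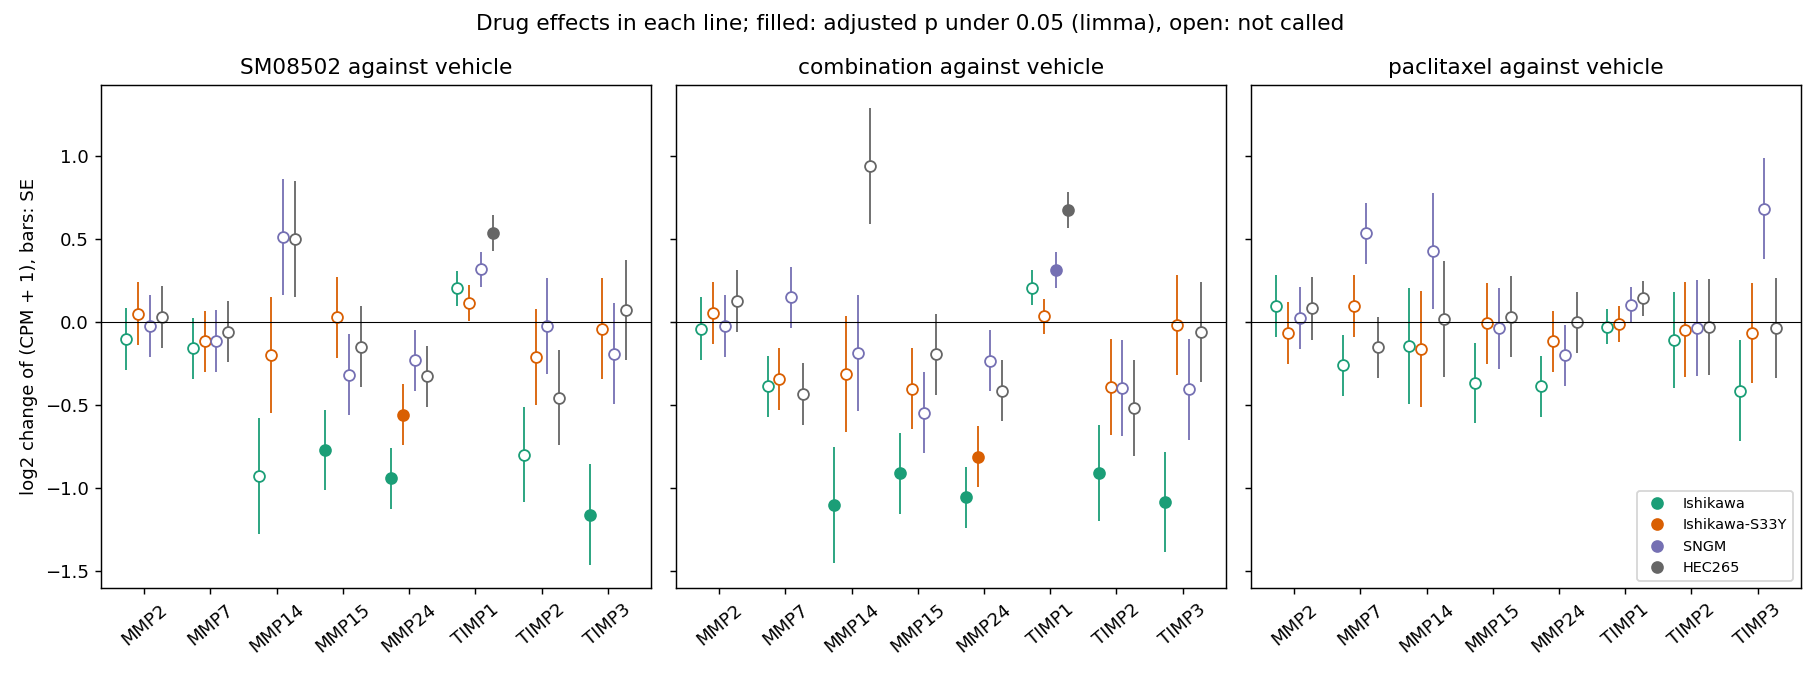
Change of log2(CPM + 1) against vehicle for each gene (x axis) with SM08502, the combination and paclitaxel, coloured by cell line; bars are SE from the limma fit, filled points had an adjusted p under 0.05 and open points did not. MMP2 points lie between -0.10 and 0.13, where those of SNGM and HEC265 rest on 0 to 4 reads a group; the Ishikawa points of MMP14, MMP15, MMP24, TIMP2 and TIMP3 lie lowest with the combination, and no paclitaxel point is filled.

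MMP2 itself was not called with any treatment in Ishikawa-S33Y or Ishikawa. In SNGM and HEC265 it had 0 to 4 reads in the 2 libraries of a group, too few for a call on the log2(CPM + 1) scale, so the absence of a call there says nothing about a change. In Ishikawa-S33Y its libraries had 62.8 and 62.3 CPM with SM08502, 56.7 and 58.4 with paclitaxel and 59.9 and 65.5 with the combination, overlapping or close to the vehicle values. The SM08502 change there was 0.05 (95% interval -0.34 to 0.44) and that of the combination 0.05 (-0.34 to 0.45), intervals that leave room for changes of either sign within those bounds. Over both Ishikawa lines and the 3 treatments the MMP2 changes ran from -0.10 to 0.10. These comparisons share the vehicle libraries with the difference on which MMP2 was selected. In Ishikawa, SM08502 gave 2.49 and 0.912 CPM, and the lower value alone (without replicate 1) would have been called.

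The combination gave 8 calls in 32 tests, 6 lower and 2 higher. In Ishikawa both combination libraries lay below both vehicle libraries for MMP14 (17.5 and 17.5 CPM), MMP15 (5.25 and 5.52), MMP24 (19.3 and 15.5), TIMP2 (71.6 and 64.9) and TIMP3 (20.1 and 22.4). These 5 were called lower. The log2 changes were -1.10 for MMP14 (SE 0.35, adjusted p = 0.0275, limma), -0.91 for MMP15 (SE 0.24, adjusted p = 0.0103), -1.05 for MMP24 (SE 0.18, adjusted p = 3.98e-04), -0.91 for TIMP2 (SE 0.29, adjusted p = 0.0272) and -1.08 for TIMP3 (SE 0.30, adjusted p = 0.0138). Their replicates were close, unlike those with SM08502 alone. Of all genes in Ishikawa, 11.2% were called lower and 11.6% higher with the combination. With the Ishikawa libraries fitted alone none of the 5 was called. Leaving out vehicle replicate 2, or either combination replicate, left 4 calls over all lines, and that of MMP24 in Ishikawa was kept in each.

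For the mean over lines, MMP7 was called lower with the combination, and TIMP2 with SM08502 and with the combination. By line, MMP7 was called in none, and TIMP2 only in Ishikawa with the combination. With the combination MMP7 had 32.4 and 30.8 CPM in Ishikawa, 18.2 and 17.4 in Ishikawa-S33Y and 36.2 and 23.4 in HEC265, all below the vehicle libraries of the line, while in SNGM it had 33.4 and 46.05 CPM and overlapped them. TIMP2 in Ishikawa-S33Y had 507 and 472 CPM with SM08502 and 486 and 384 with the combination, below both vehicle libraries, with log2 changes of -0.21 and -0.39 that were not called. In HEC265 the corresponding TIMP2 values were 151 and 164 CPM and 152 and 148 CPM (log2 changes -0.45 and -0.52, not called). MMP15 in SNGM had 44.1 and 47.7 CPM with SM08502 and 48.8 and 31.1 with the combination, again below vehicle and not called (-0.32 and -0.54). In the main fit none of these shifts passed the adjusted threshold in its own line. With the libraries of a line fitted alone, TIMP2 was called lower in HEC265 with SM08502 and with the combination. In Ishikawa-S33Y fitted alone, TIMP2 and MMP7 were called lower with the combination. The other shifts named here were not called in such a fit.

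In the other lines the combination gave fewer calls. MMP24 fell in Ishikawa-S33Y to 53.4 and 53.5 CPM (log2 change -0.81, SE 0.18, adjusted p = 0.00130, limma), in all 15 alternatives, where 18.0% of genes were called lower and 24.0% higher. TIMP1 rose in HEC265 to 260 and 276 CPM (0.68, SE 0.11, adjusted p = 1.24e-04, limma), also in all 15 alternatives, where 12.4% of genes were called higher and 7.16% lower. TIMP1 in SNGM had 168 and 129 CPM (0.31, SE 0.11, adjusted p = 0.0451), a call lost in 9 of 15 alternatives. Its second library was the one of 1.61 M reads, and without the first the change was 0.13. In SNGM 10.8% of genes were called higher and 7.54% lower. For the mean over lines, with 29.0% of genes called higher and 20.1% lower, TIMP1 was higher by 0.31 (SE 0.05, adjusted p = 6.78e-05, limma). Lower were MMP24 (-0.63), TIMP2 (-0.55), MMP15 (-0.51), TIMP3 (-0.39) and MMP7 (-0.25), of which TIMP3 was lost in 16 of 26 alternatives and MMP7 in 8 of 26 (mean change -0.18 without HEC265 combination replicate 2).

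The effect of the combination on MMP14 differed between HEC265 and Ishikawa, lines with very different levels. In HEC265 it had 0.759 and 0.432 CPM with SM08502 and 1.03 and 1.29 with the combination, above 0.0890 and 0.154 on vehicle and 0.120 and 0.158 with paclitaxel. These are 29 and 51 reads in the 2 libraries of each group against 6 on vehicle. The combination change in HEC265 was 0.94 (SE 0.35, adjusted p = 0.0628, limma) and missed the threshold. The combination effect on MMP14 in HEC265 minus that in Ishikawa was 2.04 (SE 0.49, adjusted p = 0.0187, limma). It was 3.65 and not called with a pseudocount of 0.1 (adjusted p = 0.0569), 4.08 with voom, and the call was lost in 7 of 19 alternatives (range of the difference 1.83 to 4.08), 6 of them with 1 library left out. For SM08502 and the combination all pairs of lines were tested for every member, with pairs other than the 2 Ishikawa lines added after the values were seen. A second difference was called: the TIMP1 effect of the combination was larger in HEC265 than in Ishikawa-S33Y by 0.64 (SE 0.15, adjusted p = 0.00620, limma).

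No other difference of an effect between lines was called among the members. For the combination the background was 4.73% of genes for HEC265 minus Ishikawa, 15.1% for HEC265 minus Ishikawa-S33Y, 4.89% for HEC265 minus SNGM, 10.5% for Ishikawa-S33Y minus Ishikawa, 7.71% for SNGM minus Ishikawa and 22.5% for SNGM minus Ishikawa-S33Y. For SM08502 it was 2.56% for HEC265 minus Ishikawa, 5.66% for HEC265 minus Ishikawa-S33Y, 2.03% for HEC265 minus SNGM, 2.43% for Ishikawa-S33Y minus Ishikawa, 3.66% for SNGM minus Ishikawa and 9.83% for SNGM minus Ishikawa-S33Y. Between the 2 Ishikawa lines 2 members had an unadjusted p under 0.05 for SM08502, where 17.2% of all tested genes did, and 1 for the combination, where 25.6% did, so the first count is near the background and the second below it. A call in Ishikawa that is missing in Ishikawa-S33Y therefore does not show that the lines differ.

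Paclitaxel alone changed no member past the threshold in any line. The share of all tested genes that was called was 0.0118% for Ishikawa, 0% for Ishikawa-S33Y, 0.0176% for SNGM, 0.00588% for HEC265 and 0% for the mean. At an unadjusted p under 0.05 there were 1 member in Ishikawa (MMP24), 2 in SNGM (MMP7 and TIMP3) and 0 in the other lines, where the share of all tested genes at that threshold was 7.37% for Ishikawa, 1.76% for SNGM, 0.717% for Ishikawa-S33Y and 0.929% for HEC265. The voom fit on recovered reads called 0 members as well. MMP7 in SNGM had 57.7 and 46.1 CPM with paclitaxel against 40.8 and 30.4 on vehicle (log2 change 0.54, SE 0.19, adjusted p = 1.0, limma). In Ishikawa the 2 paclitaxel libraries differed, as for MMP14 (52.003 and 23.4 CPM) and TIMP2 (180 and 79.3 CPM), and without replicate 1 MMP24 was called. Adding paclitaxel to SM08502 also changed no member past the threshold in any line (limma), with 0 members at an unadjusted p under 0.05 and 0 by voom. The background there was 0% of genes for Ishikawa, 0.129% for Ishikawa-S33Y, 0.253% for SNGM and 0.00588% for HEC265. Without replicate 1 of the SNGM combination, where the library of 1.61 M reads remains, MMP14 was called.

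TIMP1 relative to TIMP2 was higher in libraries with SM08502 than in the vehicle libraries of the same line. TIMP1 per 100 CPM of TIMP2 was 73.2 and 82.3 in HEC265 on vehicle, 157 and 154 with SM08502 and 170 and 186 with the combination. In Ishikawa it was 66.3 and 47.5 on vehicle, 85.9 and 149 with SM08502, and 113 and 134 with the combination. In SNGM the 3 pairs were 35.7 and 31.0, 41.5 and 42.8, and 48.1 and 62.1. In Ishikawa-S33Y they were 15.1 and 15.6, 19.2 and 19.4, and 19.4 and 22.0, so every library with SM08502 lay above the vehicle libraries of its line. With paclitaxel alone the ratio was 90.3 and 85.0 in HEC265, also above vehicle, 40.8 and 86.2 in Ishikawa, where the higher library lay above 1 of the SM08502 libraries, 39.6 and 33.9 in SNGM and 15.1 and 16.4 in Ishikawa-S33Y. MMP2 per 100 CPM of TIMP2 in Ishikawa-S33Y went from 10.8 and 10.5 to 12.4 and 13.2 with SM08502 and 12.3 and 17.1 with the combination. That highest value belongs to the library of 2.99 M reads, in which TIMP2 was lowest. CPM is not corrected for transcript length, so only the change of a ratio between libraries can be read, and the ratios were not tested.

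**Figure D4:**
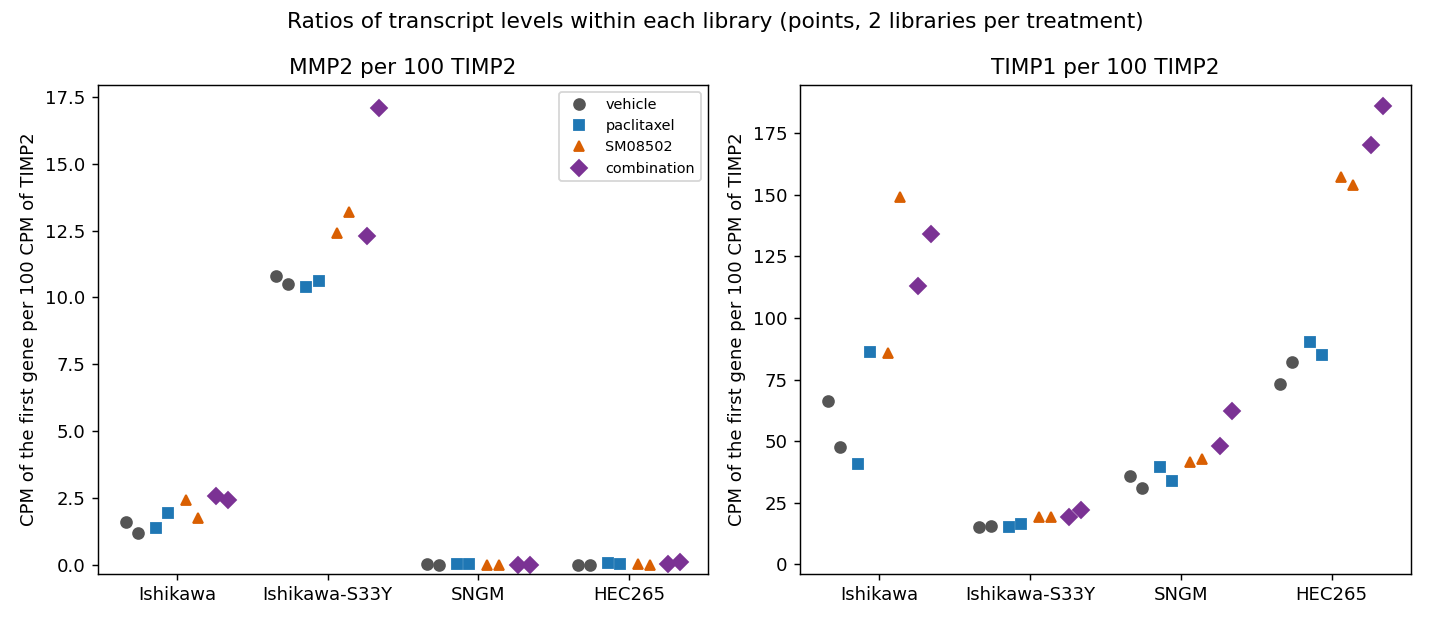
MMP2 (left) and TIMP1 (right) per 100 CPM of TIMP2 in each of the 32 libraries, by cell line, with the colour and shape of a point giving the treatment. The TIMP1 ratio of libraries with SM08502 lies above that of vehicle libraries in each of the 4 lines, and the MMP2 ratio is above 10 in Ishikawa-S33Y alone.

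For the mean over lines, more genes were called lower than higher with SM08502 in 4 of 5 lists of the wider proteolytic system, while single lines differed in their counts. In HEC265 the metalloproteinases were 2 higher and 0 lower, the inhibitors 2 and 0, and the convertase and plasminogen genes 2 and 1, and in SNGM the metalloproteinases were 0 and 0. In Ishikawa the metalloproteinases were 0 higher and 5 lower of 14 tested. Of all tested genes, 9.27% were called higher and 5.39% lower in HEC265. These shares were 3.8% and 4.06% in SNGM, and 6.5% and 8.68% in Ishikawa. Counts below are for the mean over 4 lines, beside a median change of 0.05 over all genes and the background of 22.6% higher and 15.8% lower given above. Of the 14 tested metalloproteinases 3 were lower and 1 higher, with a median change of -0.12, and the lower share is near the background. MMP11 was lower (log2 change -0.41, SE 0.15), as was MMP17 (-0.35, SE 0.12), and MMP16, a membrane-type proteinase, was higher (0.31, SE 0.09). Of 10 genes listed as inhibitors 2 were higher and 2 lower, with a median of 0.07. Whether each gene of that list acts as an inhibitor was not examined. A2M, the circulating broad-range protease trap, was higher by 0.40 (SE 0.11) and SPOCK2 was lower (-0.36, SE 0.11). Levels of these genes were low: vehicle means by line were 0.21 to 1.07 CPM for A2M and 0.89 to 2.52 CPM for SPOCK2. In HEC265, vehicle means were 0.04 CPM for MMP11, 0.02 for MMP17 and 0 for MMP16. Their mean changes thus include a line with almost no reads of the gene on vehicle.

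Other inhibitors and proteinases were not called for that mean. RECK, a membrane-anchored inhibitor, had a change of 0.21, PZP 0.16, SPOCK1 0.12, SPOCK3 0.01 and TIMP4 -0.01. With the combination RECK (0.31), PZP (0.25) and SPOCK3 (0.21) were called higher, which with TIMP1 made 4 inhibitors higher, and TIMP2, TIMP3 and SPOCK2 made 3 lower of 10 (median 0.16). Of the 14 proteinases 5 were lower and 1 higher with the combination (median -0.19). These counts stand beside 29.0% of all tested genes called higher and 20.1% lower with the combination and a median change of 0.04. Among proteinases MMP1, MMP10, MMP12, MMP19, MMP23B and MMP25 were not called for either mean. By line, MMP10 rose in HEC265 with SM08502 (0.70, SE 0.15, adjusted p = 0.00214, limma) from a mean of 2.0 to 3.88 CPM, and fell in Ishikawa (-0.60, SE 0.15, adjusted p = 0.00771) from 58.7 to 39.0 CPM. MMP1 also rose in HEC265, from 2.41 to 4.23 CPM with SM08502 and to 7.62 with the combination. Whether these effects differ between lines was not tested.

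Of 13 genes of proprotein convertases and the plasminogen system, a list that holds both activators and inhibitors, 0 were higher and 4 lower (median change -0.17). PLAU, the urokinase that makes plasmin, was lower by 0.49 (log2 change -0.49, SE 0.07), with a mean in Ishikawa-S33Y of 44.3 CPM on vehicle and 20.8 with SM08502. PCSK7, a proprotein convertase (-0.44, SE 0.10), and SERPINE2, a plasminogen activator inhibitor (-0.34, SE 0.10), followed. Of 28 tested ADAM and ADAMTS proteinases 12 were lower and 0 higher (median -0.17), led by ADAM15 (-0.94, SE 0.07), ADAMTS7 (-0.78, SE 0.15) and ADAM23 (-0.68, SE 0.08). ADAM15 went from means of 63.4 to 126.4 CPM on vehicle to 26.8 to 60.4 CPM with SM08502 across the 4 lines.

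Among transcripts of the proteins that these enzymes cut, more were called lower than higher for the mean over lines. Of 30 matrix and basement membrane genes 14 were lower and 0 higher with SM08502 (median -0.26), and 15 were lower and 1 higher with the combination (median -0.41, all genes 0.04). TNC, tenascin C, was lower by 1.04 (log2 change -1.04, SE 0.17), COL1A1 by 0.96 (-0.96, SE 0.18) and COL18A1, a basement membrane collagen, by 0.94 (-0.94, SE 0.17). TNC in Ishikawa-S33Y had a mean of 984.1 CPM on vehicle and 558.5 with SM08502. In the same line MMP2 had a change of 0.05. By line, SM08502 lowered 6 of the 30 matrix genes in Ishikawa (median -0.57) and 4 in Ishikawa-S33Y (-0.35). In SNGM 1 was lower (-0.12) and in HEC265 4 (-0.04), with 0 higher in any line. The shares of all genes called lower were 8.68%, 10.6%, 4.06% and 5.39% in that order. COL1A1 had a median of 1.23 CPM in SNGM and 4.17 CPM in HEC265.

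Genes with the pattern most like that of MMP2 were ranked by Pearson's r over the 16 group means of log2(CPM + 1), among 12746 genes whose highest group mean was at least 3. The 5 closest were TEX15 (r = 0.9967), LHX9 (0.9958), SHE (0.9956), DPYSL3 (0.9950) and HOXD10 (0.9948), and 12 genes had r above 0.99. All 5 were high in Ishikawa-S33Y, such as SHE with 17.4 to 21.8 CPM there and 1.39 to 3.25 CPM in Ishikawa. These points share libraries and 4 lines, so r mostly restates the contrast between lines and carries no test. Among the members, r with MMP2 was 0.85 for MMP24, 0.84 for MMP14, 0.69 for TIMP3, 0.53 for TIMP2, -0.11 for MMP15, -0.57 for TIMP1 and -0.85 for MMP7.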

How the data were processed

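Total RNA of 32 libraries was depleted of ribosomal RNA and sequenced, per the labels' protocols. The submitters' processing notes name bcl2fastq, kallisto, STAR and GRCh38, without roles; which of them counted reads, the annotation and the strand are not given in the sources used here. Per the values and header of the deposited table, it holds log10(CPM + 1) of 35238 genes. These values were taken back to CPM, and 100% of the values above 0 were whole reads within 0.1 read, which gave each library's depth; counting precision follows from it, with a floor of 3 reads.

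Samples were grouped by line and treatment from their titles. With limma 3.58.1 in R 4.3.3, 16 group means were fitted to log2(CPM + 1) of 17011 genes with CPM above 1 in at least 2 libraries, with an intensity trend. It had 16 residual and 4.9 prior degrees of freedom. Fold changes on this scale understate those of low genes. P-values were two-sided and Benjamini-Hochberg adjusted over all tested genes. The script was tested on simulated data. Because the deposited unit was log10, no count model was the main test; voom on the recovered reads was an alternative, beside other filters, pseudocounts, scalings, blocks and left-out libraries.

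The genes named were the 8 members, the other metalloproteinases and inhibitors that passed the filter, up to 3 genes each way from each of 3 further lists by the mean SM08502 change, and the 5 genes most correlated with MMP2. The marker genes, the overlapping genes MMP24-AS1, SYN1, SYN3 and CEP295NL, and the 9 unfiltered proteinases were named besides. Members and lists were chosen with earlier results of these data known. Promoter windows came from RefSeq (GRCh38.p14). Splicing tables were not analysed here.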

Additional observations from a re-analysis of the deposited data

Results flagged for a closer look

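Among the drug effects on the 8 members, 2 differed between lines by a test of the difference itself. Both use contrasts between lines that were added after the values were seen. With the combination, 4.73% of all tested genes were called for HEC265 minus Ishikawa and 15.1% for HEC265 minus Ishikawa-S33Y. Over all pairs of lines, for SM08502 and the combination, that share ran from 2.03% to 22.5%. The 2 member calls over all these contrasts are not above the background. The MMP14 effect of the combination in HEC265 minus that in Ishikawa was 2.04 on the log2 scale (SE 0.49, adjusted p = 0.0187, limma). It was called in 12 of 19 alternatives, with adjusted p from 0.00263 to 0.0904 and a difference of 1.83 (without vehicle replicate 2 of Ishikawa, not called) to 4.08 (voom). With a pseudocount of 0.1 it was 3.65 and not called. MMP14 has 6 reads on vehicle and 51 with the combination in HEC265, against levels of 33.3 and 44.9 CPM on vehicle in Ishikawa. The TIMP1 effect of the combination in HEC265 minus that in Ishikawa-S33Y was 0.64 (SE 0.15, adjusted p = 0.00620, limma) and was called in 19 of 19 alternatives. Replicate 2 of the Ishikawa-S33Y combination has 2.99 M reads (M, 1000000).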

How the results depend on the processing

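Of 26 called changes of single members, 497 alternative values were computed: 394 kept their direction and call, 103 kept their direction and lost the call, and 0 reversed. Over 238 uncalled changes, 102 changed sign in some alternative and 47 were called in some. The number of members called with SM08502 over 4 lines was 5; it was 3 with no filter, 8 with voom and 8 without both shallow libraries. Leaving out 1 library at a time gave 2 to 8 for SM08502: 2 without Ishikawa SM08502 replicate 2, 8 without its replicate 1, and 3 without either Ishikawa vehicle library. For the combination, 8 became 5 with no filter, and leaving out 1 library gave 4 to 9, with 4 without Ishikawa vehicle replicate 2 or either Ishikawa combination replicate. For paclitaxel the count of 0 became 1 without Ishikawa paclitaxel replicate 1 (0 to 1), and for the combination against SM08502 it became 1 without SNGM combination replicate 1 (0 to 1). For HEC265 against SNGM, 2 became 1 with no filter or without any 1 of the 4 vehicle libraries (1 to 1), 4 with a pseudocount of 0.1 and 5 with voom. The cause of these shifts was not tested. With the replicate block the counts were 5 for SM08502, 7 for the combination, 0, 0 and 2; the TIMP1 call in SNGM with the combination (log2 change 0.32) was the one lost. Replicate numbers do not pair the samples throughout: differences between replicates correlated from -0.48 to 0.83 between treatments of Ishikawa, -0.08 to 0.21 for HEC265, -0.57 to 0.70 for SNGM and -0.06 to 0.09 for Ishikawa-S33Y. The 0.83 was between paclitaxel and SM08502 of Ishikawa, and the 0.70 between vehicle and paclitaxel of SNGM. Vehicle with SM08502 gave -0.48 in Ishikawa and -0.57 in SNGM. Libraries of Ishikawa and SNGM thus share variation between treatments that the main fit does not model. A crossed replicate block, chosen after seeing the data, gave 13 calls for the combination and 7 for SM08502. Depth limits MMP2 in SNGM and HEC265 and MMP14 and TIMP3 in HEC265, which have few reads; in the SNGM library of 1.61 M reads, 3 reads are 1.87 CPM.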
